A study of Mus musculus with 8 samples.

Results

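The Cyp4 genes studied here are 10 cytochrome P450 genes of the liver, chosen by name: Cyp4a10, Cyp4a12a, Cyp4a12b, Cyp4a14, Cyp4a31, Cyp4a32, Cyp4f13, Cyp4f14, Cyp4f15 and Cyp4v3. They were taken by symbol from 24972 genes in the deposited table of normalized counts, and all 10 passed the filter on low values (at least 10 in at least 4 libraries). That table lists 23 Cyp4 rows of the A, B, F, V and X subfamilies in all. Liver RNA came from C57BL/6J mice that received an adeno-associated virus of serotype 8 (AAV8) into a vein at the age of 10 weeks and were sampled 8 weeks later, at 18 weeks. One group received AAV8-ALB-ATF3 (ATF3) and the other AAV8-ALB-Null (Null), with 4 libraries in each, although the design text names 8 mice per group. ALB was read as the albumin promoter, which is active in hepatocytes, and the label of the Null vector names no gene. The study asked which hepatic genes are regulated by ATF3, a stress-induced transcription factor. The labels do not say that each library is 1 mouse, and a p-value here reflects only how these libraries vary, which may be technical.

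Cyp4 enzymes are monooxygenases of the endoplasmic reticulum that hydroxylate the terminal, or omega, carbon of fatty acids. Alcohol and aldehyde dehydrogenases carry the product on to a dicarboxylic acid, which peroxisomes shorten. In mouse liver Cyp4a10 and Cyp4a14 are textbook targets of the fatty acid receptor PPARA, Cyp4a12a is a male-biased arachidonic acid hydroxylase, the Cyp4f enzymes act on leukotrienes and other long-chain lipids, and Cyp4v3 is the mouse counterpart of a human medium-chain fatty acid hydroxylase.

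Normalized counts summed to between 23919261 and 28446045 per library, and rough estimates of depth ran from 17164000 to 48517800 reads. Atf3 held 20.3 to 24.5 normalized counts in the Null libraries and 5611 to 7053 in the ATF3 libraries. Of 9 hepatocyte markers, 8 were listed in the table, and their summed level lay between 2410630 and 3821030 in Null and between 3139780 and 3734100 in ATF3. The summed markers of Kupffer cells and macrophages (8049 to 12194 in Null, 9339 to 13678 in ATF3), of endothelial cells (7902 to 9650.0 and 7892 to 8245) and of stellate cells and fibroblasts (5234 to 7168 and 4319.9 to 6031) also overlapped between the groups. Cholangiocyte, lymphocyte, neutrophil and adipocyte markers lay at 1407 or lower, with Ly6g at 0 in every library. In bulk RNA, fewer cells of a type and less RNA per cell cannot be told apart. In the TPM values, the row Mir6236 held from 0.308% to 89.4% of a library, which affects levels set across libraries on that scale but not shares within a library.

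The family divides by sequence into an A, an F and a V subfamily, and the copies within the A subfamily bear on how far single counts can be trusted. The 60 coding bases around the P450 haem-binding signature show this. They are read from GENCODE vM21 transcripts (mm10), 5′ to 3′, and capitals mark bases that differ from Cyp4a10 at the same position.
Cyp4a10: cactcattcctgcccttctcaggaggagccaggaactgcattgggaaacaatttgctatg
Cyp4a12a: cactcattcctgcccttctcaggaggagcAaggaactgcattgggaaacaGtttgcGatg
Cyp4a12b: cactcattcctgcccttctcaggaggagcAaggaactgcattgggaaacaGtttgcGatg
Cyp4a14: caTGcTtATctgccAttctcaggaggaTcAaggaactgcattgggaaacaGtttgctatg
Cyp4a31: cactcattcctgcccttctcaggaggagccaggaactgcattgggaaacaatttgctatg
Cyp4a32: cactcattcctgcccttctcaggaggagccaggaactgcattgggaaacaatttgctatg
Cyp4f13: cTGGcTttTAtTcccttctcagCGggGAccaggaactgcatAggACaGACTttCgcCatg
Cyp4f14: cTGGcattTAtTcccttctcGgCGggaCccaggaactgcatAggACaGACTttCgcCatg
Cyp4f15: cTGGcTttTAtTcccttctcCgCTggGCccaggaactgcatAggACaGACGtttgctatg
Cyp4v3: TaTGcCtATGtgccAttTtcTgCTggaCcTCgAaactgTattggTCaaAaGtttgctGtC
Cyp4a31 and Cyp4a32 did not differ from Cyp4a10 in this stretch, Cyp4a12a and Cyp4a12b each differed at 3 bases and were the same as each other, and Cyp4a14 differed at 9. The Cyp4f genes differed at 19 or 20 bases and Cyp4v3 at 23.

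Over the whole coding sequence, Cyp4a12a and Cyp4a12b were 98.5% identical, with 23 of 1524 bases different and identical runs of up to 342 bases. Cyp4a10 was 96.6% identical to Cyp4a31 and 97.2% identical to Cyp4a32. By contrast Cyp4a14 was at most 76.4% identical to any other member, Cyp4f14 and Cyp4f15 were 82.1% identical, and Cyp4v3 reached at most 58.3%.

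**Figure D1:**
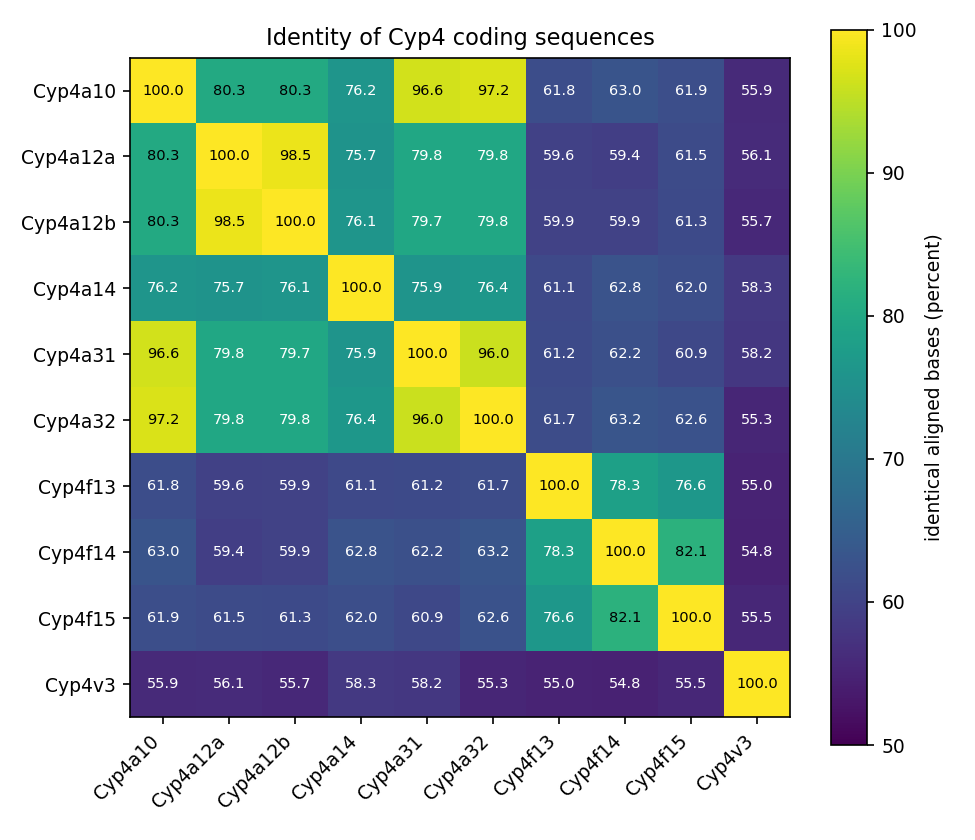
Percentage of identical aligned bases between the coding sequences of the 10 Cyp4 genes, on both axes. Cyp4a10, Cyp4a31 and Cyp4a32 form 1 block of at least 96.0%, Cyp4a12a and Cyp4a12b another at 98.5%, and Cyp4v3 stays at or below 58.3% with every other member.

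Reads are separable only where copies differ. For each set of copies, the first stretch of 60 coding bases with the most differences is shown, with the differing positions in capitals (coding bases 624 to 683 for the first pair, 200 to 259 for the set of 3).
Cyp4a12a: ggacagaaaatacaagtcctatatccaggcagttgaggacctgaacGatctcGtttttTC
Cyp4a12b: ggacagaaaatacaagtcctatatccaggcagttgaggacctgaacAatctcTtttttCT
Cyp4a10: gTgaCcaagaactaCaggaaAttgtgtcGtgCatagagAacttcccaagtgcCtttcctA
Cyp4a31: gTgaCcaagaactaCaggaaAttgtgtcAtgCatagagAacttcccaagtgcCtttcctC
Cyp4a32: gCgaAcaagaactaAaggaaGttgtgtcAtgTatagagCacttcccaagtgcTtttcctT
Of all 31-base stretches in their transcripts, 62.2% of Cyp4a12a, 62.9% of Cyp4a12b, 62.8% of Cyp4a32, 44.9% of Cyp4a10 and 32.0% of Cyp4a31 also occur in other genes, so the single values of these 5 genes are uncertain. The share was 1.99% for Cyp4a14, 3.76% for Cyp4f13, 7.22% for Cyp4f14, 7.31% for Cyp4f15 and 7.49% for Cyp4v3.

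In mm10 the Cyp4a members lie on chromosome 4 within 323 kb (115299046 to 115621602), in the order Cyp4a12a, Cyp4a12b, Cyp4a14, Cyp4a10, Cyp4a31 and Cyp4a32. Cyp4f15, Cyp4f14 and Cyp4f13 lie on chromosome 17 within 262 kb (32685627 to 32947402). Cyp4v3 lies apart, on chromosome 8 (45304944 to 45333216).

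With ATF3, 5 of the 10 Cyp4 genes rose, Cyp4f15 fell, and 4 did not pass the test at an adjusted p of 0.05 (limma, ATF3 against Null). Over all 13301 genes tested, 21.2% were called, 11.4% higher and 9.82% lower. The median log2 change of the 10 genes was 0.46, against 0.00681 over all genes tested. The groups did not overlap for 4 members (Cyp4a10, Cyp4a32, Cyp4f15 and Cyp4v3), and for 26.3% of all genes tested. Without Null 1, Null 2, Null 3, ATF3 1, ATF3 2 or ATF3 4, each left out alone, the number of higher members was 3. Higher calls over all genes ran from 1047 to 1331 in these fits, against 1513 with every library.

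**Figure D2:**
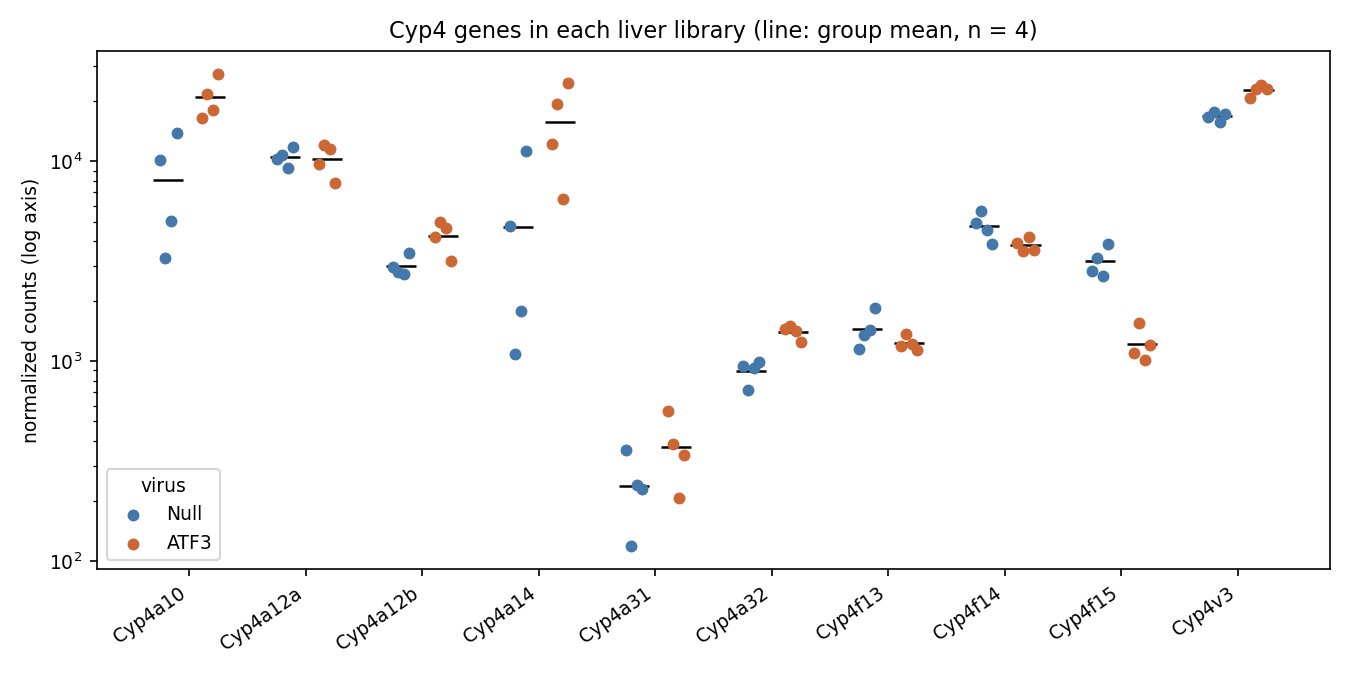
Normalized counts (log axis) of each Cyp4 gene in the 4 Null and 4 ATF3 libraries, with a line at each group mean. Cyp4a10, Cyp4a32 and Cyp4v3 lie higher and Cyp4f15 lower in each of the ATF3 libraries than in the whole Null group, while Cyp4a10 and Cyp4a14 spread most among the Null libraries.

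**Figure D3:**
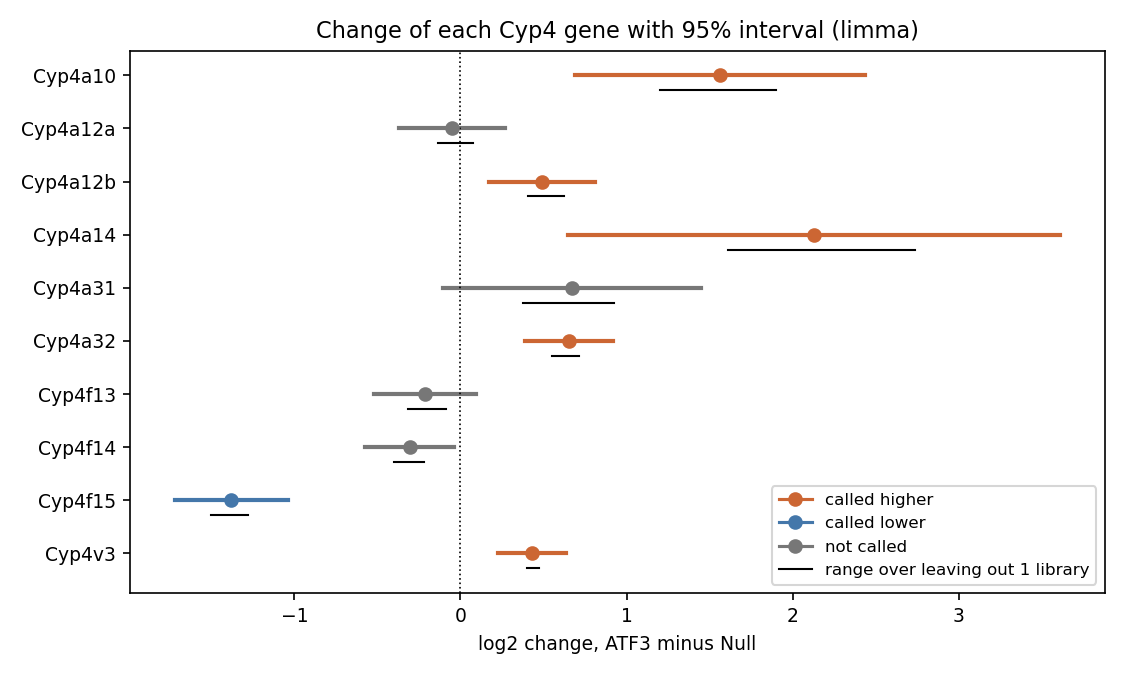
Log2 change of each Cyp4 gene, ATF3 minus Null, with its 95% interval from limma (coloured) and, in black, the range when 1 library is left out. Changes run from -1.38 for Cyp4f15 to 2.13 for Cyp4a14, whose interval (0.65 to 3.61) is the widest of the 10.

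Cyp4a14 and Cyp4a10, the inducible fatty acid hydroxylases, had the largest changes of the 10. Values of single libraries are given in the order 1 to 4 within each group. Cyp4a10 held 10186, 3282, 5007 and 13911 normalized counts in the Null libraries and 16464, 21838, 18097 and 27288 in the ATF3 libraries. Every ATF3 library was above every Null library, and Null 1 and Null 4 lay above Null 2 and Null 3. Its log2 change was 1.56 (SE 0.39, adjusted p = 0.0178 by limma), a 2.95-fold difference, and the call was lost without ATF3 4 (adjusted p = 0.0571).

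Cyp4a14 held 4772, 1083, 1792 and 11224 normalized counts in the Null libraries and 12178, 19436, 6507 and 24819.9 in the ATF3 libraries. The groups overlapped, because Null 4 exceeded ATF3 3. The log2 change of 2.13, a 4.38-fold difference (SE 0.67, adjusted p = 0.0456 by limma) lay close to the threshold. The call was lost without Null 1, Null 2, Null 3, ATF3 1, ATF3 2 or ATF3 4 (adjusted p from 0.065 to 0.125), with robust variance (adjusted p = 0.117), without the filter (adjusted p = 0.0594) and with rescaled TPM (adjusted p = 0.0546).

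The libraries of a group spread widely for both genes. The residual SD of Cyp4a14 on the log2 scale was 1.22, above that of 99.3% of genes tested, and that of Cyp4a10 was 0.71, at the percentile 96.6. Cyp4v3, in contrast, had an SD of 0.0797, at the percentile 3.69. The nearest profile to Cyp4a14 over the 8 libraries was that of Cyp4a10, with a root mean square difference of 0.60 between their centred log2 values. Next came the death receptor gene Tnfrsf10b (0.67) and the cytokine gene Tnfsf15 (0.68), both of low level. Tnfrsf10b held 4.59 to 15.7 normalized counts in Null and 32.0 to 46.2 in ATF3. Tnfsf15 held 1.12 to 6.03 in Null and 16.3 to 28.1 in ATF3, and it passed the filter only through the ATF3 libraries. The Cyp4a14 to Cyp4a10 ratio was between 0.33 and 0.807 in Null and between 0.36 and 0.91 in ATF3, and it did not pass (exact permutation p = 0.257).

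Cyp4a31 and Cyp4a32 are the near copies of Cyp4a10. Cyp4a32 held 951, 718, 925 and 992 normalized counts in the Null libraries and 1442, 1506, 1423 and 1243 in the ATF3 libraries. These groups did not overlap, and Cyp4a32 rose by 0.65 (SE 0.12, adjusted p = 0.00322 by limma), a call kept when each library was left out in turn. Cyp4a31, the least abundant member, held 358, 119, 241 and 229 normalized counts in the Null libraries and 563, 385, 207 and 339.6 in the ATF3 libraries. Its groups overlapped, and at 0.67 (SE 0.35, adjusted p = 0.209 by limma) it did not pass. Summed over Cyp4a10, Cyp4a31 and Cyp4a32, the change was 1.45 (SE 0.35, adjusted p = 0.0156 by limma).

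Of the nearly identical Cyp4a12a and Cyp4a12b, Cyp4a12b rose and Cyp4a12a did not pass the test. Cyp4a12a held 10328, 10733, 9249.6 and 11844 normalized counts in the Null libraries and 9737, 12073, 11484 and 7798 in the ATF3 libraries. Its groups overlapped, and the change of -0.05 (SE 0.14, adjusted p = 0.836 by limma) had a 95% interval from -0.37 to 0.27. Cyp4a12b held 2959, 2798, 2732 and 3501 normalized counts in the Null libraries and 4196, 4971, 4633 and 3181 in the ATF3 libraries. It rose by 0.49 (SE 0.14, adjusted p = 0.0355 by limma), with ATF3 4 below Null 4. The Cyp4a12b call was lost without Null 1, Null 2, Null 3, ATF3 1, ATF3 2 or ATF3 3 (adjusted p from 0.0682 to 0.107).

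Within each library, Cyp4a12b made up 20.7% to 22.8% of the summed counts of both genes in Null and 28.7% to 30.1% in ATF3. These ranges did not overlap. The log2 ratio of Cyp4a12b to Cyp4a12a was higher by 0.54 in ATF3, a difference that did not pass after adjustment (exact two-sided permutation p = 0.0286, the smallest that 70 assignments allow, and adjusted p = 0.0571 over 6 ratios). The sum of both genes differed by 0.09 on the log2 scale (SE 0.14, adjusted p = 0.721 by limma).

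Of the 3 Cyp4f members, Cyp4f15 fell and Cyp4f13 and Cyp4f14 did not pass the test. Its normalized counts were 2840.0, 3286, 2683 and 3852 in the Null libraries and 1105, 1558, 1013 and 1206 in the ATF3 libraries. All 4 ATF3 libraries were below all 4 Null libraries, and Cyp4f15 fell by 1.38 (SE 0.15, adjusted p = 0.000167 by limma), a 2.60-fold difference. This call was kept when each library was left out in turn, with changes from -1.50 to -1.28.

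Cyp4f14, which hydroxylates leukotriene B, held 4936, 5640.1, 4554 and 3865 normalized counts in the Null libraries and 3889, 3559, 4207 and 3612 in the ATF3 libraries. The groups overlapped through Null 4, and the change of -0.30 (SE 0.12, adjusted p = 0.103 by limma) did not pass. Without Null 4 it was -0.40 (adjusted p = 0.0137). Cyp4f13 held 1150.4, 1353, 1427 and 1852 normalized counts in the Null libraries and 1186, 1374, 1227 and 1139 in the ATF3 libraries. These groups overlapped, and the change of -0.21 (SE 0.14, adjusted p = 0.315 by limma) did not pass.

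The Cyp4f14 to Cyp4f15 ratio was 1.74, 1.72, 1.70 and 1.003 in the Null libraries and 3.52, 2.28, 4.15 and 2.99 in the ATF3 libraries. The log2 difference was 1.07 without overlap of the groups, and it did not pass after adjustment (exact permutation p = 0.0286, adjusted p = 0.0571 over 6 ratios). The Cyp4f13 to Cyp4f14 ratio differed by 0.09 on the log2 scale (exact permutation p = 0.714). Among the genes with profiles nearest to Cyp4f14 over the 8 libraries were Klhl2 and Crebl2 (root mean square differences 0.0579 and 0.0771).

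RefSeq promoter windows of GRCm38.p6, 250 bases before to 50 after a start, were matched for 5 members: Cyp4a32, Cyp4f13, Cyp4f14, Cyp4f15 and Cyp4v3. The window of Cyp4f15 and 1 of several of Cyp4f14 are shown, as genes of 1 cluster. Cyp4f15 fell and Cyp4f14 did not pass the test. Both changes were negative (-1.38 and -0.30), and the ratio of these genes did not pass after adjustment. Capitals mark the letters ATTGG, the reverse strand of CCAAT. The windows are chr17:32685409-32685708 on the plus strand and chr17:32917307-32917606 on the minus strand.
Cyp4f15: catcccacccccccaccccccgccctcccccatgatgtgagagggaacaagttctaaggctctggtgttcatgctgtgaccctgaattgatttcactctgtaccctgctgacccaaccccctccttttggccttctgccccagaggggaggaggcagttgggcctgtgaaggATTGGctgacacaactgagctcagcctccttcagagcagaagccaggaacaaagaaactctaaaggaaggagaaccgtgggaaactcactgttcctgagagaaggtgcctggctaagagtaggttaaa
Cyp4f14: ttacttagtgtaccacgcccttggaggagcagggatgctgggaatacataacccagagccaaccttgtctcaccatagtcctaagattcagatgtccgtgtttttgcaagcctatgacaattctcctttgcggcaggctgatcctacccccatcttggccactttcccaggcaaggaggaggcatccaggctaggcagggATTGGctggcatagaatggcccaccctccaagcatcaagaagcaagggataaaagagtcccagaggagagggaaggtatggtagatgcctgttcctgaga
The PPAR element as a direct repeat (AGGTCANAGGTCA), its single repeat unit (AGGTCA), the cAMP response element (TGACGTCA) and its core (TGACG) were searched on both strands in the 8 windows of the 5 members. None of them was found in these windows. No window was matched for Cyp4a10, Cyp4a12a, Cyp4a12b, Cyp4a14 or Cyp4a31, so the search says nothing of those genes. Of 32851 windows of the same length over all genes, 0.0396% hold the direct repeat, 16.3% its single unit, 1.79% the cAMP response element and 20.8% its core. CCAAT was found on 1 strand or the other in windows of Cyp4a32, Cyp4f13, Cyp4f14 and Cyp4f15 but not of Cyp4v3, and 41.1% of all genes with a window hold it in at least 1. Each shorter motif is contained in its full element.

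Cyp4v3 was the most uniform member within each group. Its normalized counts were 16609, 17767, 15825 and 17205 in the Null libraries and 20851, 22912, 24045 and 23082 in the ATF3 libraries. Every ATF3 library was above every Null library, and Cyp4v3 rose by 0.43 (SE 0.09, adjusted p = 0.00786 by limma), or 1.35-fold. This call was kept when each library was left out in turn. Tmbim1, Glyctk and H2-Q10 had the nearest profiles over the 8 libraries (root mean square differences 0.0334, 0.0358 and 0.0442). The Cyp4v3 to Cyp4f14 ratio was 3.15 to 4.45 in Null and 5.36 to 6.44 in ATF3 without overlap (log2 difference 0.74, exact permutation p = 0.0286, adjusted p = 0.0571). Of the 6 ratios compared, 0 passed after adjustment and 3 had an unadjusted p under 0.05 in the exact permutation test.

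Levels of different genes were compared per length, as shares of the summed TPM of the 10 genes within each library. In Null, Cyp4v3 held 27.3% ± 5.22, Cyp4a12a 19.8% ± 2.72 and Cyp4a10 16.6% ± 7.07 (SD, n = 4). Cyp4v3 was above Cyp4a12a in 4 of 4 libraries, whereas Cyp4a12a was above Cyp4a10 in 2 of 4. In Null 4 Cyp4a10 (23.4%) was also above Cyp4v3 (20.9%). Cyp4f14 (10.2% ± 3.12), Cyp4a14 (7.60% ± 6.02) and Cyp4f15 (6.41% ± 0.937) followed, and their order varied among the libraries. Cyp4a12b, Cyp4f13, Cyp4a32 and Cyp4a31 came last by mean, at 5.73%, 3.76%, 2.13% and 0.432%, each above the next in 4 of 4 libraries. In Null 2 and Null 3, however, Cyp4a14 (2.30% and 3.96%) lay below both Cyp4a12b and Cyp4f13.

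In ATF3, Cyp4a10 led with 29.3% ± 2.93, above Cyp4v3 at 23.5% ± 3.28 in 4 of 4 libraries. Cyp4a14 held 17.9% ± 7.14 and Cyp4a12a 12.6% ± 3.15, in this order in 3 of 4. Cyp4a12b (5.30% ± 1.33) and Cyp4f14 (5.21% ± 1.10), and likewise Cyp4a32 (2.17% ± 0.399) and Cyp4f13 (2.08% ± 0.303), changed places among the libraries. Cyp4f15 stood at 1.58% ± 0.211 and Cyp4a31 at 0.449% ± 0.215.

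As a whole, the Cyp4f genes made up 15.8% to 25.3% of the pool in Null and 7.19% to 10.1% in ATF3. The 6 Cyp4a genes made up 42.1% to 63.3% and 62.2% to 72.4%. Cyp4a10 and Cyp4a14 together ranged from 10.6% (Null 2) to 39.2% (Null 4) in Null and from 37.6% to 58.9% in ATF3. These shares are given as a description, and each depends on the rest of the pool. The mean share of Cyp4v3 was 27.3% in Null and 23.5% in ATF3, although Cyp4v3 itself was called higher. Among the Cyp4f members, only Cyp4f15 was called lower by limma.

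**Figure D4:**
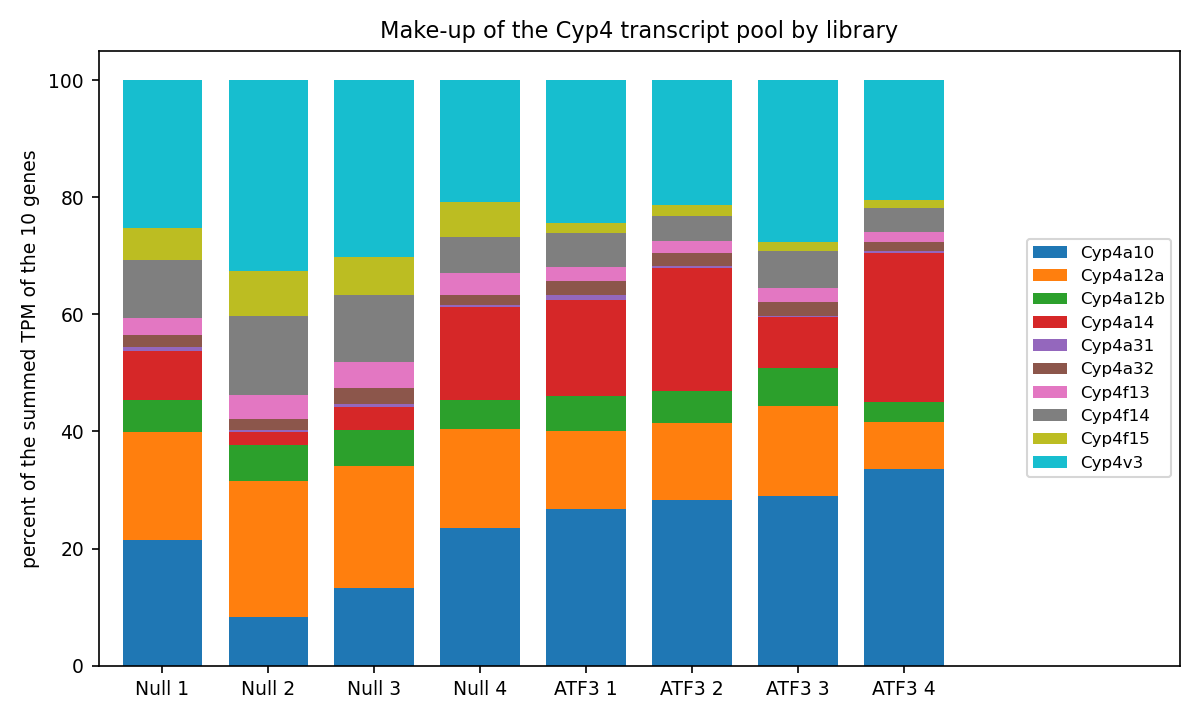
Percent of the summed TPM of the 10 Cyp4 genes held by each gene, as stacked bars for the 4 Null and 4 ATF3 libraries. Cyp4a10 takes 8.35% to 23.4% in the Null libraries and 26.7% to 33.5% in the ATF3 libraries, and the Cyp4f genes together take 15.8% to 25.3% and 7.19% to 10.1%.

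The other Cyp4 genes of the table held at most 545.1 normalized counts in any library. Of 11 listed in the table from a list of 12, 4 were tested, and Cyp4f17 fell by 0.38 (SE 0.11, adjusted p = 0.0302 by limma), from 202 to 227 normalized counts in Null to 149 to 176 in ATF3. The Cyp4f17 call was lost without Null 1, Null 2, ATF3 1, ATF3 3 or ATF3 4 (adjusted p from 0.0577 to 0.0866). Cyp4b1 (-0.29), Cyp4f16 (-0.20) and Cyp4f18 (-0.37) did not pass. Cyp4b1 held 393 to 545 in Null and 341 to 386 in ATF3 without overlap, as did 26.3% of all genes tested. In Null it lay above the member Cyp4a31 by mean (448 against 237). Cyp4a29, Cyp4a30b and Cyp4f37 were listed at 0 in every library, and Cyp4f39, below the filter, held 3.35 to 17.03 in Null and 0 to 1.12 in ATF3.

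Within 200 kb of the Cyp4a members, the other genes tested were Cyp4b1, Efcab14 and Atpaf1, and 0 of these 3 passed by limma (adjusted p from 0.0503 to 0.766). Around the Cyp4f members, 9 other genes were tested, of which Zfp870 rose by 0.44 and Cyp4f17 and Zfp871 fell by 0.38 and 0.67, with 21.2% of all genes tested called.

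With every library in the fit, most PPARA targets other than Cyp4 genes rose. Of 30 tested, 21 rose, Fabp1 fell and 8 did not pass (limma), with a median change of 0.48 against 0.00681 over all genes, of which 11.4% rose and 9.82% fell. Acot3, an acyl-CoA thioesterase gene, rose by 4.94, the peroxisome division gene Pex11a by 1.92, the dicarboxylyl-CoA thioesterase gene Acot4 by 1.72 and the fasting regulator gene Creb3l3 by 0.64. The liver fatty acid binding protein gene Fabp1 fell by 0.70, a call not made with quantile normalization (-0.16, adjusted p = 0.469 by limma), with TPM as deposited (adjusted p = 0.791) or rescaled (adjusted p = 0.0502), or without Null 1 and Null 4 together (adjusted p = 0.0813). The number of higher genes was 11 without ATF3 3 or without ATF3 4, and 13 without Null 1 or without ATF3 2. Higher calls over all genes fell as well, from 1513 to 1040, 1047, 1219 and 1112 in the same order. The median change of the list ran from 0.45 to 0.52 in these fits. Without Null 3, Null 2, ATF3 1 or Null 4, the higher genes of the list numbered 14, 15, 20 and 22. Over all genes, 1256, 1326, 1331 and 1965 were higher in the same order. With TPM as deposited, 3 genes of the list were higher, and 440 over all genes.

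Null 4, the Null library with the most Cyp4a10 and Cyp4a14, held the highest Null value of 21 of these 30 targets, against 37.2% of all genes tested. Null 4 held 449 counts of Acot3 and 629 of Acot4, while Null 2, the library with the least Cyp4a10 and Cyp4a14, held 26.7 and 253. Pex11a went the other way, with 1004 in Null 4 and 1897 in Null 2. What sets Null 4 apart was not tested.

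**Figure D5:**
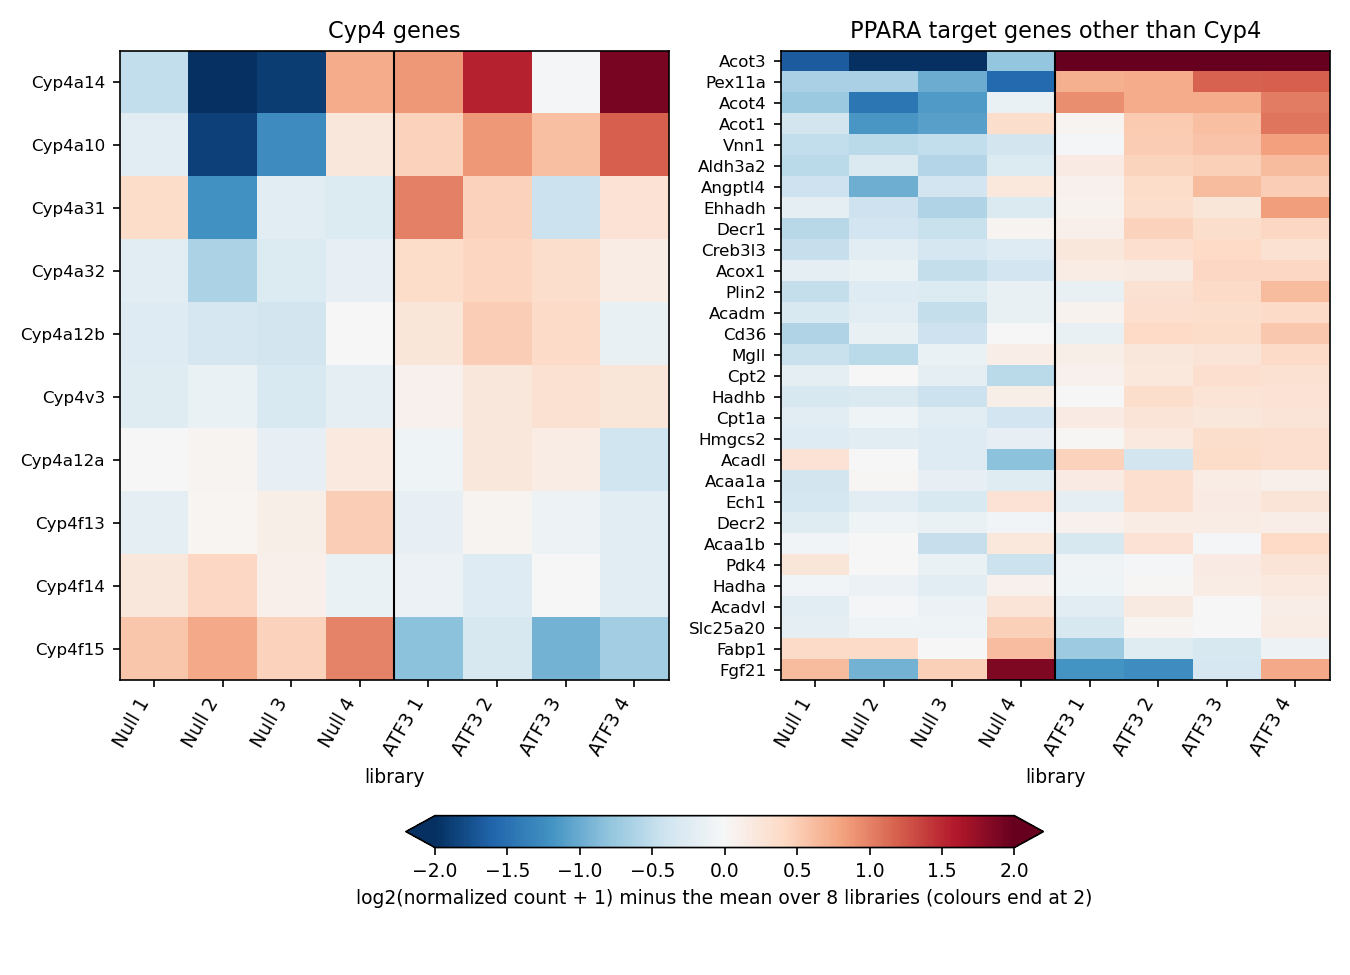
Log2(normalized count + 1) minus the mean over 8 libraries, for the 10 Cyp4 genes (left) and 30 PPARA targets (right), ordered by change, with libraries on the horizontal axis and colours ending at 2. Null 2 and Null 3 are the lowest for Cyp4a14 and Cyp4a10, and Null 4 is the highest Null library for both.

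Among 26 nuclear receptors and regulators linked to Cyp4 transcription, 3 rose and 4 fell, where 11.4% of all genes tested rose and 9.82% fell. The fatty acid receptor gene Ppara held 11492 to 14544 in Null and 16364 to 18062 in ATF3 without overlap, and rose by 0.40 (SE 0.11, adjusted p = 0.0227 by limma). The Ppara call was lost without Null 2, Null 3, ATF3 1, ATF3 3 or ATF3 4 (adjusted p from 0.0537 to 0.0662). The coactivator gene Ppargc1a rose by 0.77. The transcription factor gene Stat5a, which acts in growth hormone signalling, fell by 0.63 and Pparg by 1.04, as did the xenobiotic receptor genes Nr1i2 and Nr1i3 (by 0.77 and 0.78). Rxra, the gene of the partner of PPARA on DNA, at -0.29 (adjusted p = 0.0516 by limma) and Stat5b at -0.26 (adjusted p = 0.0862 by limma) did not pass. Without Null 4, 5 regulators rose and 8 fell. Calls over all genes grew as well in that fit, to 1965 higher and 1812 lower from 1513 and 1306.

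Microsomal P450 enzymes take electrons from P450 reductase and cytochrome b5 and need haem. Of 14 genes of this supply, 4 rose and 1 fell, beside 11.4% and 9.82% of all genes tested. Alas1, the rate-limiting enzyme gene of haem synthesis, rose by 1.32 and Alad, the next step, by 0.62. Por, the P450 reductase gene, held 10864, 7508, 7007 and 5834 normalized counts in the Null libraries and 13339, 11619, 12592 and 13934 in the ATF3 libraries, a rise of 0.76 (SE 0.17, adjusted p = 0.01 by limma) with no overlap. Of the cytochrome b5 genes, Cyb5b rose by 0.39 and Cyb5a fell by 0.49. The Cyb5a call was lost without Null 2, Null 4, ATF3 1, ATF3 3 or ATF3 4 (adjusted p from 0.0568 to 0.111). The Cyb5b call was lost without any 1 library other than Null 4 (adjusted p from 0.0528 to 0.0887).

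The genes listed for the steps after the hydroxylase moved in both directions. Not all of them encode enzymes of these steps, since the peroxisome division gene Pex11a is among them. Of 22 tested, 12 rose and 4 fell (12 and 7 at an unadjusted p under 0.05), against 11.4% and 9.82% of all genes tested, and 7 of the 12 are also on the PPARA list. The alcohol dehydrogenase gene Adh1 rose by 1.38 and the fatty aldehyde dehydrogenase gene Aldh3a2 by 0.85. The coenzyme A diphosphatase gene Nudt7 fell by 2.30 and the peroxisomal carnitine octanoyltransferase gene Crot by 2.09. The number of lower genes was 2 without Null 2, ATF3 1, ATF3 3 or ATF3 4. Lower calls over all genes ran from 851 to 1247 in these fits, against 1306 with every library.

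Of 13 eicosanoid and leukotriene genes tested, 3 rose and 0 fell by limma (5 and 0 at an unadjusted p under 0.05), where 11.4% and 9.82% of all genes tested did so. Hpgd, the prostaglandin-inactivating dehydrogenase gene, held 2274 to 2854 in Null and 7298 to 8173 in ATF3, and rose by 1.67 (SE 0.10, adjusted p = 1.64e-06 by limma). Lta4h, which makes leukotriene B, rose by 0.62, and Ephx1, an epoxide hydrolase gene, by 0.69. Ephx2, another epoxide hydrolase gene of the list, did not pass, at 0.14 (adjusted p = 0.487 by limma). The Ephx1 call was lost without Null 1, Null 3, ATF3 2 or ATF3 4 (adjusted p from 0.0507 to 0.0581). Of 5 vitamin K cycle genes, 0 passed by limma, and 0 had an unadjusted p under 0.05. Vkorc1, the vitamin K epoxide reductase gene, was at 0.17 and held 531 in Null 4 against 1863 to 2209 in the other Null libraries. Without Null 4 it was lower by this test, at -0.31 (adjusted p = 0.0404 by limma).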

How the data were processed

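Libraries were made with an Illumina stranded total RNA kit from mirVana-extracted RNA, per the labels' protocols. Bowtie2 and mm10 stand in the submitters' processing notes. Which software counted genes, with which annotation and filters, is not given in the sources used here. The authors deposited a signal, called normalized counts here, whose values read as estimated counts divided by a factor per library. They also deposited values taken as TPM because every column has the sum that unit gives. TPM lacked 26 of the gene names.

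Log2(normalized count + 1), which understates changes of low genes, was fitted with limma 3.58.1 (R 4.3.3; trended eBayes, two-sided). The fit took 13301 genes with a value of 10 or more in 4 or more libraries, with Benjamini-Hochberg adjustment over all of them and calls at 0.05. It was tested on simulated data. Of values from 20 to 200, 9.68% to 14.0% were whole multiples (within 0.05) of the most frequent low value, so reads were not recovered and no count model was run. That low value gave the rough depth. At most 10 tested values were identical in any pair of libraries.

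Members, lists and tests were chosen with earlier results of these data known. Genes named are Atf3, the members, the other tested Cyp4 genes, up to 4 genes of each list by p, Ppara, Rxra, Por and Stat5b, and the 3 nearest profiles of 4 members; some genes that this rule names are not reported here. Cluster neighbours, Fabp1, Cyb5a, Aldh3a2, Nr1i2, Nr1i3, Vkorc1, Ephx2, Cyp4f39 and the genes listed at 0 were named after their values were seen. CCAAT was searched after the windows were seen. Ratios were compared by an exact two-sided permutation test. Libraries were matched by title and numbered in accession order. Coordinates and transcripts came from GENCODE vM21 and were aligned with Biopython 1.88. Alternatives covered scaling, filters, pseudocounts, TPM, variance, library weights and leaving out libraries.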

Additional observations from a re-analysis of the deposited data

How the results depend on the processing

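Of the 10 Cyp4 genes, Cyp4a32, Cyp4f15 and Cyp4v3 passed under every alternative but the TPM as deposited. With that scale the median change of all genes was 0.68, 440 genes were called higher, 76 lower and 516 in all. Only 1 member was higher (Cyp4a14) and 0 were lower by limma (4 and 0 at an unadjusted p under 0.05). Signs turned for Cyp4a12a (0.95), Cyp4f13 (0.73), Cyp4f14 (0.68), Rxra (0.70), Stat5b (0.62), Stat5a (0.18), Cyp4b1 (0.56), Cyp4f16 (0.18), Cyp4f17 (0.40), Cyp4f18 (0.0579), Ggcx (0.78), Afap1l2 (0.16), Fam118b (0.56), Snrpg (0.83), Klhl2 (0.56), Crebl2 (0.59), Cyb5a (0.52) and Fabp1 (0.31). Rescaled by median of ratios, TPM turned none of these signs, and Cyp4a10, Cyp4a12b, Cyp4a32 and Cyp4v3 were higher and Cyp4f15 lower. With library weights, 2271 genes were higher, 2130 lower and 4401 in all, and 2 members were lower (Cyp4f14 and Cyp4f15). Vkorc1 turned sign with these weights (-0.138). Leaving out 1 library at a time gave 3 to 5 higher and 1 to 2 lower members. Over all genes, lower calls ran from 851 (without ATF3 3) to 1812 (without Null 4). Cyp4a12a ran from -0.136 to 0.0743 (0.00651 without Null 4, 0.0743 without ATF3 4). Of the nearest profiles to Cyp4a12a (Afap1l2, Fam118b and Snrpg, root mean square differences 0.071, 0.0736 and 0.0943), Afap1l2 ran from -0.159 to 0.026 (without ATF3 4) and Fam118b from -0.0956 to 0.0997 (without ATF3 4), with 0.0028 without Null 1 and 0.00508 with upper-quartile scaling. The Cyp4f13 to Cyp4f14 ratio ran from -0.0341 (without Null 1) to 0.312, with -0.0202 without Null 2. Null 1 and Null 4 were also both left out, a setting chosen after seeing the data. It removes the Null libraries with the most Cyp4a10 and Cyp4a14. In that fit 2 members were lower, and Cyp4a12a (0.0238), Fam118b (0.0513), Snrpg (0.0178), Cyp4f18 (0.13) and Vkorc1 (-0.237) turned sign. The cause was not tested for any of these. None of the 6 ratios passed after adjustment, which the design allows only where at least 4 of them reach the smallest exact p of 0.0286, so this says nothing of stability. No paired analysis was possible because the labels give the libraries no replicate numbers shared between groups. Dixon's test of the members' 20 groups of 4 values found 0 outlying values. It does not test libraries: Null 4 had the lowest library weight (0.228), and 3777 genes were called without it, against 2819.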
